A study of Drosophila melanogaster with 9 samples.

Results

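Innexins are the proteins that form gap junctions in invertebrates, and the annotation of *D. melanogaster* lists 8 innexin genes, *ogre* (also called Inx1), *Inx2*, *Inx3*, *Inx5*, *Inx6*, *Inx7*, *shakB* and *zpg* (also called Inx4). All 8 were found by gene identifier among the 13676 genes of a read count table from developing eye-antennal imaginal discs. Innexin subunits assemble into channels that join the cytoplasm of neighbouring cells, so that ions and small molecules such as calcium and inositol trisphosphate can pass directly between them. In *D. melanogaster*, Inx2 and Inx3 are known as partners in epithelia, *ogre* for its need in the developing optic lobes, *shakB* for electrical synapses and *zpg* for junctions between germ cells and the soma. Inx2 is also known from genetic work in *D. melanogaster* to influence the size of the eye.

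The discs, larval epithelia from which eye, antenna and head cuticle of the fly develop, came from untreated wild-type OregonR larvae raised at the same temperature and density. RNA was sequenced at 72h after egg laying (AEL, late in the second larval instar), 96h AEL (the middle of the third instar) and 120h AEL (late in the third instar), with 3 libraries (replicates A, B and C) per stage, in which order the values of a stage are given. Discs were pooled, 120 to 130 per library of 72h AEL, 80 to 90 per library of 96h AEL and 40 to 50 per library of 120h AEL. The youngest larvae were of both sexes and the larvae of both later stages were female, so a change of sex composition and a change of stage cannot be told apart in any comparison with 72h AEL. The labels mark the 120h AEL libraries as reanalysed ones, and a batch of that kind cannot be told apart from the stage.

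Total counts per library lay between 17675472 and 37305763. Replicates A and B of 72h AEL had counts that agreed within sampling noise (chi-square of 1.02 per gene over 10235 genes, against 36.2 to 488 in the other 8 pairs of libraries of 1 stage). They enter all tests as 1 sample except in alternative fits that keep them apart, so n is 2 for 72h AEL and 3 for each later stage. Nothing in the labels says how the libraries of a stage relate beyond their letters, so p-values measure the spread between these libraries, which may in part be technical. All 11 disc markers examined, among them *ey*, *eya* and *dac*, were detected in every library, with summed levels, in CPM (counts scaled to a common library total by edgeR's TMM method), of 737 to 771 for 72h AEL, 1812 to 2425 for 96h AEL and 1586 to 1693 for 120h AEL. Other tissues left their markers too. The 6 muscle markers in the table summed to between 12885 and 17708 CPM in 72h AEL discs, between 1909 and 7731 CPM in 96h AEL discs and between 380 and 755 CPM in 120h AEL discs. In these bulk samples, fewer cells of a type and less RNA per cell cannot be told apart.

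The innexin genes fell into an abundant and a scarce set. *ogre*, *Inx2* and *Inx3* together held 93.4%, 93.2% and 99.4% of the summed innexin level (CPM per kb of coding sequence) in the 72h AEL libraries, and 99.8% to 99.9% in each library of 96h and 120h AEL. *Inx7* held the largest part of the rest in every library. *Inx5*, *Inx6*, *shakB* and *zpg* stayed under 1 CPM per kb in every library. *ogre*, *Inx2*, *Inx3* and *Inx7* passed a filter on low counts taken over all stages, as did 9124 genes in all, and *Inx7* passed it through its level in 72h AEL replicates A and B.

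**Figure D1:**
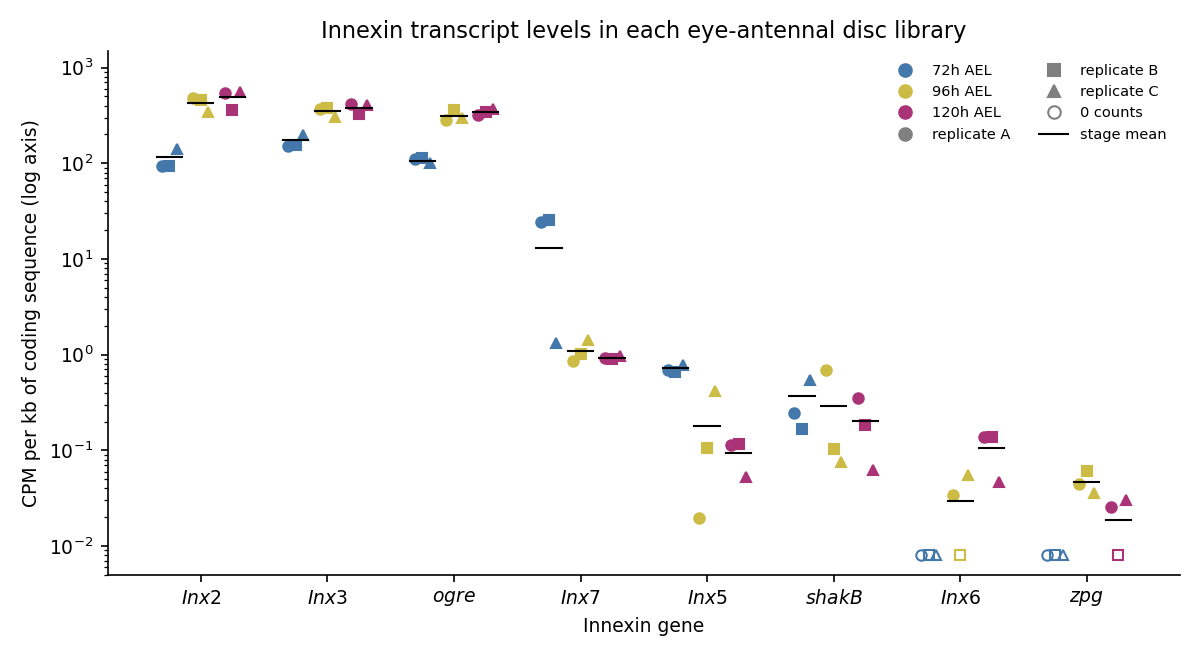
Level of each of the 8 innexin genes in each library, in CPM per kb of coding sequence on a log axis, with colours for the stage, symbols for the replicate, open symbols at the foot for 0 counts and black lines for stage means (72h AEL replicates A and B averaged first). Inx2, Inx3 and ogre lie well above the other 5 genes at every stage and are lower at 72h AEL than at 96h and 120h AEL, and Inx7 stands above 20 CPM per kb in 72h AEL replicates A and B alone.

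The abundant set is split over 2 places in the genome. In Ensembl's BDGP6 annotation, *ogre* (FBgn0004646) lies on chromosome X at 6973620 to 6991318 on the minus strand, *Inx7* (FBgn0027106) at 6991612 to 6993612 on the minus strand and *Inx2* (FBgn0027108) at 6998672 to 7004151 on the plus strand, all within 30532 bases. *Inx3* (FBgn0265274) is on chromosome 3R at 28853606 to 28859497, minus strand. Of the scarce genes, *Inx5* (FBgn0030989) lies on chromosome X at 19168777 to 19170883, *Inx6* (FBgn0027107) on X at 20267821 to 20269769, *shakB* (FBgn0085387) on X at 20761071 to 20927050 and *zpg* (FBgn0024177) on 3L at 6604366 to 6606032, each on the minus strand. Reads were counted on 1 coding sequence per gene, between 1089 bases (*ogre*) and 1599 bases (*shakB*) long, so the UTRs gave no counts. None of the 8 coding sequences overlaps another gene's coding sequence. For *shakB* the annotation holds 6 distinct coding sequences, and parts found in the shorter ones alone were not counted. The other 7 genes have 1 each.

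*Inx2*, an epithelial subunit, had the highest mean of all innexins at both later stages. Its level was 93.9, 94.8 and 139 CPM per kb in the 72h AEL libraries, 478, 464 and 344 CPM per kb at 96h AEL, and 547, 364 and 555 CPM per kb at 120h AEL. Every library of the later stages lay above every library of 72h AEL, and 96h AEL replicate C and 120h AEL replicate B were the lowest of their stages. Means were 117 ± 31.9 CPM per kb in 72h AEL discs (SD, n = 2), 428 ± 73.5 in 96h AEL discs and 489 ± 108 at 120h AEL (SD, n = 3 each). Among the 9124 genes that passed the filter, ordered by CPM per kb, *Inx2* stood at rank 1540 at 72h AEL, rank 277 at 96h AEL and rank 232 at 120h AEL.

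*Inx3*, whose product joins Inx2 in epithelial channels, was the most abundant innexin at 72h AEL. Its level was 153, 156 and 199 CPM per kb in the 72h AEL libraries, 365, 378 and 306 CPM per kb at 96h AEL, and 417, 325 and 405 CPM per kb at 120h AEL. As with *Inx2*, replicate C was the highest library of 72h AEL and the lowest of 96h AEL, and replicate B the lowest of 120h AEL. Stage means were 176 ± 31.4 CPM per kb in 72h AEL discs (SD, n = 2), 350 ± 38.4 in 96h AEL discs and 382 ± 50.2 at 120h AEL (SD, n = 3 each).

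*ogre* was measured at 110, 113 and 100 CPM per kb in the 72h AEL libraries, 284, 361 and 296 CPM per kb at 96h AEL, and 322, 347 and 370 CPM per kb at 120h AEL. Among the 3 abundant genes it varied least between the libraries of 72h and of 120h AEL, and its lowest library in each stage was not that of *Inx2* and *Inx3*. Its means were 106 ± 7.97 CPM per kb in 72h AEL discs (SD, n = 2), 314 ± 41.0 in 96h AEL discs and 346 ± 24.0 at 120h AEL (SD, n = 3 each).

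All 3 abundant genes rose between 72h and 96h AEL. With edgeR's quasi-likelihood test and adjustment over 8845 genes, *Inx2* was 3.53-fold higher at 96h AEL than at 72h AEL (log2 fold change 1.82, SE 0.27, adjusted p = 0.0117). *ogre* was 2.86-fold higher (log2 fold change 1.52, SE 0.20, edgeR adjusted p = 0.00833), and *Inx3* 1.91-fold higher (log2 fold change 0.94, SE 0.20, edgeR adjusted p = 0.0242). In the same comparison 42.4% of all genes tested passed this threshold, 19.4% as higher and 23.0% as lower at 96h AEL. The 3 genes also had no overlap between the libraries of the 2 stages, which held for 36.6% of all genes tested in this direction. Ordered by log2 fold change, *Inx2* lay above 96.3%, *ogre* above 93.5% and *Inx3* above 84.1% of the genes tested, and the median of all genes was -0.04. The 11 disc markers had a median of 1.69 in this comparison, with 7 called higher and 0 lower (3 to 8 called with each library left out). Without 96h AEL replicate B the adjusted p was 0.0603 for *Inx2* and 0.104 for *Inx3* in edgeR, and without 96h AEL replicate A that of *Inx3* was 0.0667. With 72h AEL replicate C as the lone 72h AEL sample, assumed to vary like the 96h AEL libraries, the log2 fold change of *Inx3* was 0.75 (edgeR adjusted p = 0.122), whereas *ogre* passed the threshold in every alternative run for this comparison.

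Between 96h and 120h AEL none of the abundant genes passed the test. Here 14.7% of the 8201 genes tested were called by edgeR (8.39% higher and 6.30% lower at 120h AEL), and 0 of the 3 innexin genes tested. No member reached an unadjusted p under 0.05 in edgeR, and DESeq2 also called 0. The log2 fold change, 120h over 96h AEL, was 0.22 for *ogre* (95% interval -0.13 to 0.56, edgeR adjusted p = 0.378), 0.27 for *Inx2* (-0.24 to 0.78, edgeR adjusted p = 0.458) and 0.21 for *Inx3* (-0.16 to 0.58, edgeR adjusted p = 0.435). The upper bounds correspond to 1.47-fold, 1.71-fold and 1.49-fold higher levels at 120h AEL, so the intervals also hold changes of that size.

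**Figure D2:**
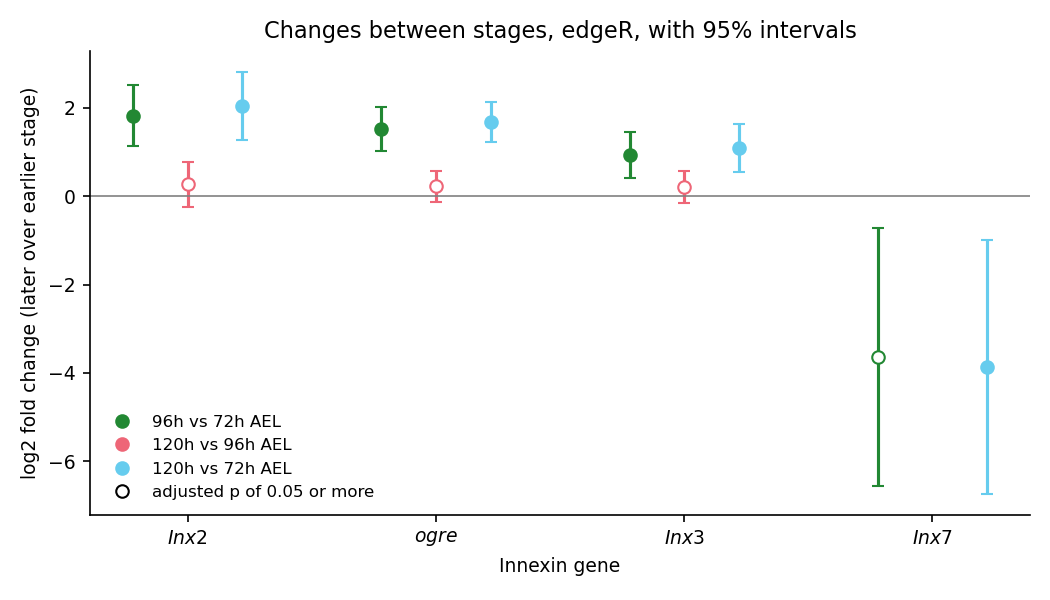
log2 fold changes of the 4 innexin genes that passed the filter, later over earlier stage, with 95% intervals from edgeR; filled symbols passed an adjusted p of 0.05 and open ones did not. Inx2, ogre and Inx3 lie above 0 in both comparisons with 72h AEL and their intervals reach across 0 between 96h and 120h AEL; Inx7, which was not tested between 96h and 120h AEL, lies far below 0 with wide intervals.

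A difference in the size of the change between the transitions passed the test for *ogre* and, narrowly, for *Inx2*. In 1 edgeR fit over all 8 samples, the log2 fold change of the second transition minus that of the first was -1.24 for *ogre* (SE 0.25, adjusted p = 0.0248) and -1.51 for *Inx2* (SE 0.41, adjusted p = 0.0496). For *Inx3* it was -0.68 (SE 0.29, adjusted p = 0.126), which did not pass. Of the 9124 genes in that fit 7.20% were called in this direction and 8.15% in the other, that of *Inx7* (3.54, SE 1.66, adjusted p = 0.153), which did not pass. Both transitions use the 96h AEL libraries, so a low or high library of that stage moves the transitions in opposite directions. The contrast was added after the data had been seen, and no alternative run was made for it.

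Over the whole interval the same genes stood higher at 120h than at 72h AEL, in a comparison that shares its libraries with those above. *Inx2* was 4.12-fold higher (log2 fold change 2.04, SE 0.30, edgeR adjusted p = 0.00527), *ogre* 3.21-fold (1.68, SE 0.18, edgeR adjusted p = 0.00193) and *Inx3* 2.14-fold (1.09, SE 0.21, edgeR adjusted p = 0.0117). Of the 9125 genes tested, 52.9% were called, 24.0% as higher and 28.9% as lower at 120h AEL, and 35.5% had no overlap in the direction of these 3 genes. The call of *Inx3* was lost without 120h AEL replicate C (edgeR adjusted p = 0.0583) and with 72h AEL replicate C alone (0.0657).

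The shares of the abundant innexins in the summed level are given here by stage. At 72h AEL, *Inx3* led with 42.5 ± 3.57% of the summed innexin level, *Inx2* had 28.1 ± 5.07% and *ogre* 25.8 ± 4.36% (SD, n = 2). At 96h AEL *Inx2* led with 39.0 ± 3.06%, against 32.0 ± 0.52% for *Inx3* and 28.8 ± 3.19% for *ogre*, and at 120h AEL the shares were 39.8 ± 4.03%, 31.4 ± 0.96% and 28.8 ± 4.28% in that order (SD, n = 3 each). The libraries of *Inx3* and *Inx2* did not overlap in CPM per kb at 72h AEL, whereas *Inx2* and *ogre* did. At the later stages the ranges of neighbours in the order *Inx2*, *Inx3*, *ogre* overlapped between libraries. Within each later library *Inx2* was the highest, and *Inx3* exceeded *ogre* in all of them but 120h AEL replicate B (ratio 0.936). The summed innexin level was 413 ± 39.0 CPM per kb in 72h AEL discs (SD, n = 2), 1094 ± 131 at 96h AEL and 1219 ± 159 at 120h AEL (SD, n = 3 each).

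The level of *Inx2* divided by that of *Inx3*, both per kb, was 0.615, 0.609 and 0.703 in the 72h AEL libraries, 1.31, 1.23 and 1.12 in those of 96h AEL, and 1.31, 1.12 and 1.37 in those of 120h AEL. *Inx3* exceeded *Inx2* in every 72h AEL library and *Inx2* exceeded *Inx3* in every later one. The difference between 96h and 72h AEL was 0.56, with p = 0.2 in a two-sided exact permutation test over samples, the smallest value that 3 against 2 samples allow. The difference between 120h and 96h AEL was 0.05 (exact permutation test, p = 0.6, where 0.1 is the smallest possible). *Inx3* divided by *ogre* was 1.12 at 96h AEL against 1.68 at 72h AEL (exact permutation test, p = 0.2), and *Inx2* divided by *ogre* was 1.38 at 96h AEL against 1.12 at 72h AEL (exact permutation test, p = 0.6). Adjusted over the 6 tests of 3 ratios in 2 transitions, the p-values were 0.6 to 1 (exact permutation tests), and this design could not reach 0.05 in any of them.

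**Figure D3:**
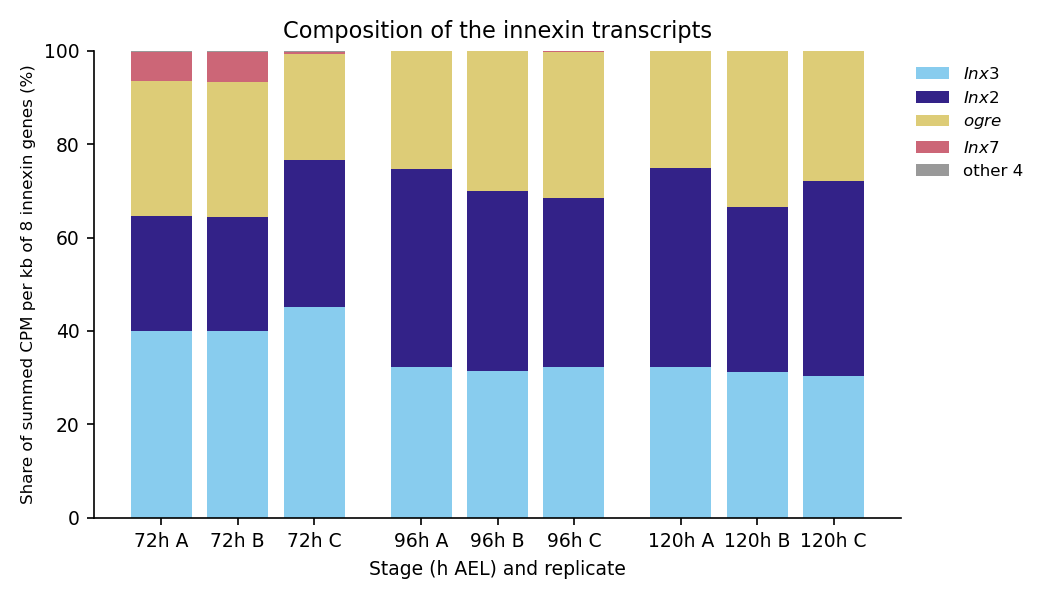
Share of each innexin gene in the summed level of the 8 genes (CPM per kb, in percent) in each library. Inx3 (light blue) is the largest share in the 72h AEL libraries and Inx2 (dark blue) in those of 96h and 120h AEL; the share of Inx7 (red) is 6.32% and 6.55% in 72h AEL replicates A and B and 0.30% in replicate C, and the other 4 genes are too low to see.

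Several measures of the libraries moved with these values. The 8 glia markers had summed levels of 276 to 291 CPM at 72h AEL, 434 to 521 CPM at 96h AEL and 494 to 576 CPM at 120h AEL, in the order of the stages that *Inx2*, *Inx3* and *ogre* also had. Most of each sum came from *Gli*, *nrv2*, *loco* and, at 72h AEL, *Mdr65*. *repo* lay between 8.38 and 18.9 CPM, and *moody* was lowest at 96h AEL (9.92 to 10.1 CPM). The photoreceptor and neuron markers had the same order of stages, with sums of 27.0 to 34.5, 199 to 293 and 691 to 765 CPM. At 96h over 72h AEL *Gli*, *loco*, *repo* and *nrv2* were called higher (log2 fold changes 1.93, 1.02, 0.83 and 0.72) and *Mdr65* lower (-1.87). Of all genes tested, 19.4% were called higher and 23.0% lower there. The median of the 8 glia markers was 0.05, beside -0.04 over all genes tested. Without 96h AEL replicate B none of the 8 was called, and without replicate A 2 were. At 120h over 72h AEL 3 were called higher and 3 lower, beside 24.0% of all genes tested called higher and 28.9% lower. The part of glial RNA in the innexin values was not tested. How far counts depended on coding length differed between libraries. Over 9124 genes, Spearman's correlation of coding length with a library's deviation from the all-library mean was between -0.48 and -0.35 at 72h AEL, 0.57, 0.42 and 0.03 in the 96h AEL libraries, and 0.46, 0.06 and 0.38 at 120h AEL. 96h AEL replicate C and 120h AEL replicate B, the lowest of their stages for *Inx2* and *Inx3*, had the correlations closest to 0 there. With the length trend of each library taken out, the log2 fold changes of 96h over 72h AEL were 1.95 for *Inx2*, 1.65 for *ogre* and 1.03 for *Inx3*, and all 3 passed (edgeR adjusted p between 0.00384 and 0.0148). Among the 858 genes with a coding sequence of 1089 to 1317 bases, the range of the 4 filtered innexins, 10.6% were called higher at 96h AEL. *ogre* and *Inx2* are X-linked, and the median log2 fold change of 96h over 72h AEL was 0.19 for 1405 X-linked genes and -0.08 for 7217 autosomal genes.

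*Inx7*, known in *D. melanogaster* from the nervous system, where it takes part in channels between neurons that serve memory, had another profile than *ogre* and *Inx2*, which flank it. Its level was 31.8 and 33.6 CPM (734 and 881 counts) in 72h AEL replicates A and B, and 1.73 CPM (42 counts) in replicate C. At 96h AEL it was 1.13, 1.34 and 1.88 CPM, and at 120h AEL 1.22, 1.19 and 1.27 CPM. Replicates A and B, which count as 1 sample, stood alone, and replicate C lay within the range of the 96h AEL libraries. The mean of A and B was 18.8-fold the value of C, a ratio that 2.39% of the 9124 genes reached or exceeded.

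The comparisons of *Inx7* with 72h AEL rest on that 1 sample. The log2 fold change of 96h over 72h AEL was -3.63 (SE 1.15, edgeR adjusted p = 0.0534), which did not pass. That of 120h over 72h AEL was -3.87 (SE 1.13, edgeR adjusted p = 0.0367), which passed, and the libraries did not overlap (38.6% of genes tested had no overlap in this direction). *Inx7* passed the filter through the sample in which it was high, and so had to differ. This call was lost when any 1 of the 120h AEL libraries was left out (edgeR adjusted p between 0.101 and 0.107). Without 72h AEL replicate C the 96h over 72h AEL comparison passed as well (log2 fold change -4.57, edgeR adjusted p = 0.00483), and with replicate C alone at 72h AEL the gene did not pass the filter. Between 96h and 120h AEL it was under the filter, and a fit without one gave a log2 fold change of -0.20 (edgeR adjusted p = 0.767).

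Midgut markers stood high in the same libraries. The 5 markers examined, *mex1* and 4 Jonah proteases, summed to 16656 and 16627 CPM in 72h AEL replicates A and B and 914 CPM in replicate C, 0.17, 61.1 and 985 CPM in the 96h AEL libraries, and 18.2 to 65.2 CPM at 120h AEL. The ratio of replicates A and B to C was 15.2 for *mex1*, 26.7 for *Jon25Bi*, 16.1 for *Jon65Aiii* and 17.6 for *Jon65Aiv*, beside 18.8 for *Inx7*, but 0.36 for *Jon99Cii*. At 96h AEL, where *Inx7* was between 1.13 and 1.88 CPM, *Jon65Aiv* was between 0 and 596 CPM. All 5 markers were called lower at 120h than at 72h AEL, also with any 1 library left out, and 1 at 96h than at 72h AEL (*mex1*), a call lost without 96h AEL replicate A or B. Of all genes tested, 28.9% were called lower at 120h than at 72h AEL and 23.0% at 96h than at 72h AEL. *Jon25Bi* and *Jon65Aiv* were at 0 counts in 96h AEL replicate A and *Jon99Cii* in 120h AEL replicate B. The part of midgut RNA in the *Inx7* values was not tested.

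**Figure D4:**
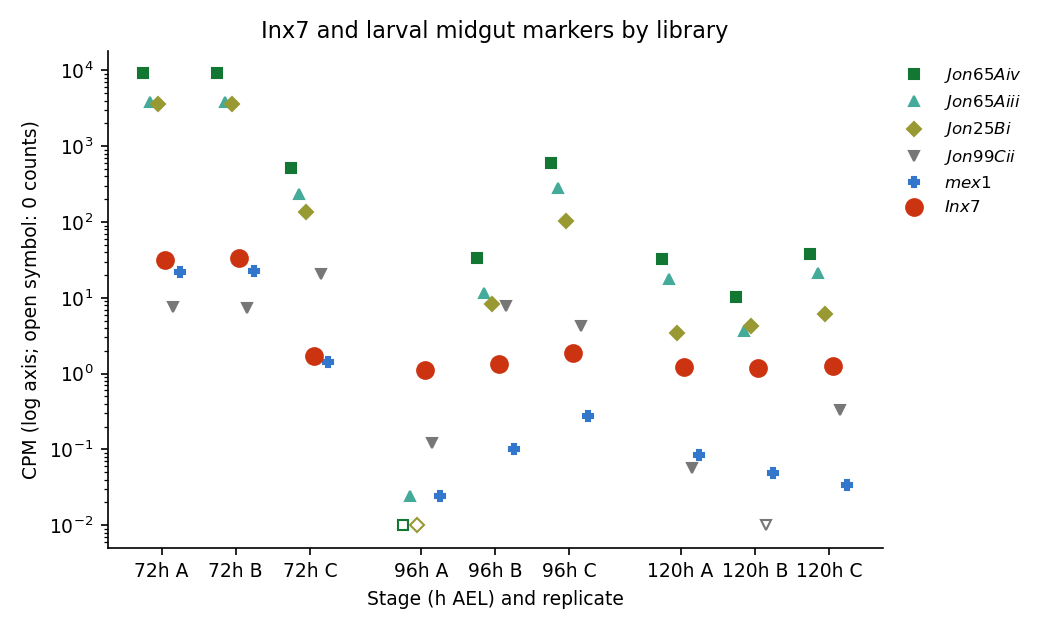
Inx7 (red circles) and 5 larval midgut markers in each library, in CPM on a log axis, with open symbols at the foot for 0 counts. Inx7 and 4 of the markers are more than 10-fold higher in 72h AEL replicates A and B than in replicate C; at 96h and 120h AEL Inx7 stays between 1.13 and 1.88 CPM while the Jonah proteases spread over several orders of magnitude.

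The genes that flank the innexins did not share 1 pattern. *CG3040*, 226 bases from *ogre*, was at 30.1 ± 0.36 CPM in 72h AEL discs (SD, n = 2), 24.9 ± 3.50 at 96h AEL and 23.4 ± 2.83 at 120h AEL (SD, n = 3 each), and *cm*, on the far side of *Inx2*, at 59.4 ± 5.69, 67.7 ± 3.51 and 79.7 ± 11.5 CPM over the same stages. *Inx7* itself lies between *ogre* and *Inx2*, 293 bases from the first. Beside *Inx3*, *Apc* was at 21.5 ± 9.74 CPM in 72h AEL discs (SD, n = 2), 62.9 ± 11.5 at 96h AEL and 67.3 ± 3.92 at 120h AEL (SD, n = 3 each). *CG33203*, on the other side of *Inx3*, had means of 0.72, 0.33 and 0.44 CPM over the same stages. No test is given for these flanking genes.

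*Inx5* was the scarce innexin with the clearest difference between stages. It had 20, 22 and 24 counts (0.87, 0.84 and 0.99 CPM) in the 72h AEL libraries, 1, 4 and 13 counts (0.02, 0.13 and 0.52 CPM) at 96h AEL, and 5, 3 and 2 counts (0.14, 0.15 and 0.07 CPM) at 120h AEL. The libraries of 96h AEL spread widely, and none of the later libraries reached the level of any at 72h AEL. In the fit without a filter, *Inx5* fell at 120h against 72h AEL (log2 fold change -2.96, SE 0.57, edgeR adjusted p = 0.0101), where 20.9% of 13528 genes were called lower. For 96h over 72h AEL the log2 fold change was -2.09 (SE 1.04, edgeR adjusted p = 0.185), which did not pass.

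*Inx6*, whose product pairs with Inx7 between memory neurons of the fly brain, had 0 counts in all 72h AEL libraries, 2, 0 and 2 counts in the 96h AEL libraries, and 7, 4 and 2 counts at 120h AEL. A count of 0 allows up to 3 counts, or 0.0838 to 0.108 CPM of the total counts in the 72h AEL libraries, and 120h AEL replicate C was below that number of counts. The fit without a filter gave an edgeR adjusted p of 0.0490 for 120h against 72h AEL, where 16.8% of genes were called higher; no fold change is given, since it depends on how the counts of 0 are treated. *zpg*, of the germ line, had 0 counts in all 72h AEL libraries, 2, 2 and 1 counts at 96h AEL and 1, 0 and 1 counts at 120h AEL, all under the floor of 3 counts. The germline markers *vas* and *nos* were not analysed here. The 5 that were (*bam*, *aub*, *AGO3*, *piwi* and *ovo*) summed to 18.2 to 29.8 CPM at 72h AEL, 83.1 to 138 CPM at 96h AEL and 61.7 to 103 CPM at 120h AEL. Most of the sum was *ovo*, a transcription factor gene that also acts in the epidermis, which was called higher at 96h than at 72h AEL (log2 fold change 2.60, edgeR adjusted p = 0.0118) and at 120h than at 72h AEL (2.14, edgeR adjusted p = 0.0103), the first call being lost without 96h AEL replicate B. *piwi* had a log2 fold change of 1.58 at 96h over 72h AEL, which did not pass (edgeR adjusted p = 0.0534), and *bam* lay between 0.07 and 1.36 CPM over all libraries. The part of germline RNA in the *zpg* counts was not tested.

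*shakB*, of electrical synapses, had 9, 7 and 21 counts in the 72h AEL libraries, 45, 5 and 3 counts at 96h AEL, and 20, 6 and 3 counts at 120h AEL. Each stage had 1 library well above the others, and no comparison passed (edgeR adjusted p between 0.440 and 0.854 in fits without a filter). In CPM per kb its means were 0.37 ± 0.24 in 72h AEL discs (SD, n = 2), 0.29 ± 0.35 at 96h AEL and 0.20 ± 0.15 at 120h AEL (SD, n = 3 each). The library with the most *shakB* in each stage was also the one with the highest summed muscle markers, at 17708 CPM in 72h AEL replicate C, 7731 CPM in 96h AEL replicate A and 755 CPM in 120h AEL replicate A. At 120h AEL, however, replicate C had nearly as much of these markers as replicate A (712 CPM), but 3 *shakB* counts against 20. The part of muscle RNA in the *shakB* counts was not tested. The 8 photoreceptor and neuron markers in the table had summed levels of 27.0 to 34.5 CPM at 72h AEL, 199 to 293 CPM at 96h AEL and 691 to 765 CPM at 120h AEL. They were highest in 72h AEL replicate C but lowest in 96h AEL replicate A and 120h AEL replicate A.

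The gene most alike to *Inx2* in profile was *Inx3*, although the log2 fold changes of *Inx2* were the larger of the pair in both comparisons with 72h AEL. Over 8 samples, the Pearson correlation of their log2 CPM was 0.998, and each was the closest of 9123 other genes to the other. *ogre* ranked at 811 for *Inx2* (r = 0.94) and at 904 for *Inx3* (r = 0.93). The samples fall apart by stage and share length and depth differences, so these correlations are a description without a test. Next to *Inx2* came *wit*, a BMP type II receptor (r = 0.998), and *Fas2*, a cell adhesion molecule (r = 0.998). *Fas2* was at 20.9, 20.4 and 35.6 CPM in the 72h AEL libraries, 188, 192 and 133 CPM at 96h AEL, and 283, 144 and 283 CPM at 120h AEL, with the same low libraries as *Inx2*. Next to *Inx3* were *CG3638* and *mub*, an RNA-binding protein (r = 0.998 each).

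The genes closest to *ogre* were *Cep97*, a centriolar protein (r = 0.993), *bib*, a neurogenic membrane channel protein (r = 0.991), and *CG10324* (r = 0.991). *bib* was at 9.40, 10.4 and 9.87 CPM in the 72h AEL libraries, 70.8, 78.4 and 68.1 CPM at 96h AEL, and 91.5, 80.8 and 103 CPM at 120h AEL. Closest to *Inx7* were *kappaTry*, a trypsin-like protease (r = 0.991), *CG30160* (r = 0.991) and *Oatp33Ea*, an organic anion transporter (r = 0.990). These correlations rest on 72h AEL replicates A and B, the 1 sample in which *Inx7* was high, so any gene high in that sample alone would rank near it. *kappaTry* was at 18.3 and 16.5 CPM in 72h AEL replicates A and B and at or under 0.08 CPM in the other 7 libraries. In the authors' own grouping of 8836 genes into 13 expression clusters, *ogre*, *Inx2* and *Inx3* were all in cluster 10, which held 10.6% of the genes assigned, *Inx7* was in cluster 2 and the other 4 in none. That grouping used these same libraries.

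Gap junctions share cell contacts with adherens junctions. Of the 4 adherens junction genes, *shg* (E-cadherin) rose by a log2 fold change of 1.98 (SE 0.40, edgeR adjusted p = 0.0206) and *arm* (beta-catenin) by 0.96 (SE 0.25, edgeR adjusted p = 0.0340) at 96h over 72h AEL, while *alpha-Cat* (0.56) and *p120ctn* (0.70) did not pass. These are 2 of 4 genes called higher, where 19.4% of all genes tested were. Their median log2 fold change was 0.83, beside -0.04 over all genes tested. None of the 4 passed between 96h and 120h AEL, where 14.7% of all genes tested did, and all 4 were called higher at 120h than at 72h AEL, where 24.0% of all genes were, with a median of 0.97, beside 0.00 over all genes tested. With the length trend taken out, 1 of the 4 passed in each comparison with 72h AEL. None passed at 96h over 72h AEL without 96h AEL replicate B and 1 without replicate A or without 72h AEL replicate C, and at 120h over 72h AEL none passed without 120h AEL replicate A or C and 2 without 72h AEL replicate C. *shg* was at 442, 369 and 240 CPM in the 96h AEL libraries, against 60.0, 61.3 and 111 CPM at 72h AEL, so replicate C was again the lowest library of 96h AEL and the highest of 72h AEL.

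Calcium and inositol trisphosphate are among the molecules that pass gap junctions, and 13 of 15 listed genes of calcium release and entry were tested. At 96h over 72h AEL 4 were called higher and none lower, beside 19.4% of all genes tested that were called higher and 23.0% lower. The 4 were the phospholipase C genes *norpA* (log2 fold change 2.59, edgeR adjusted p = 0.0297) and *sl* (1.90, 0.0303), the inositol trisphosphate receptor *Itpr* (1.66, 0.0242) and the store-operated channel *Orai* (0.81, 0.0243). *SERCA* (-1.38, edgeR adjusted p = 0.0823) and *RyR* (-1.33, 0.195) had negative values that did not pass. The median of the 13 was 0.67, against -0.04 over all genes tested. Between 96h and 120h AEL *RyR*, the ryanodine receptor, was called lower (log2 fold change -2.77, edgeR adjusted p = 0.0372), where 6.30% of all genes tested were, and the median was -0.15, against 0.01 over all genes tested. At 120h over 72h AEL 6 were called higher, among them *norpA* (2.21) and *Itpr* (1.55), and 2 lower, *RyR* (-4.15) and the calcium pump *SERCA* (-2.60), beside 24.0% of all genes higher and 28.9% lower. *RyR* and *SERCA* are abundant in muscle, and 5 of the 6 muscle markers tested were also lower at 120h than at 72h AEL. The part of muscle RNA in the *RyR* and *SERCA* values was not tested. None of the 4 rises at 96h AEL passed without 96h AEL replicate A or B, and the call of *RyR* between 96h and 120h AEL was lost without any 1 of 5 libraries, all but 96h AEL replicate C. At 120h over 72h AEL, 2 of the 13 were called lower with any library left out, and the count called higher was 2 without 120h AEL replicate A and 3 without replicate C.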

How the data were processed

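Eye-antennal discs of *D. melanogaster* were measured by RNA-seq (50-base single-end reads). The authors deposited raw counts per gene. They had mapped untrimmed reads with Bowtie2, using as reference a FlyBase release 5 set of coding sequences (the longest one per gene), and counted them with SAMtools 0.1.19, without strand. The deposited table also gives coding lengths, and a further file gives the authors' cluster numbers. Every sample column was used (0 left out). Members were matched by FlyBase identifier. BDGP6 provided names and positions for 13406 of 13676 genes and played no part in counting. No sequences were analysed here.

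Counts were scaled by TMM, and CPM divided by coding length in kb. The low-count filter followed HTSFilter's method (100 cutoffs tried between 1 and 200 normalized counts, chosen by the mean Jaccard index of replicate pairs) and removed genes that exceeded the cutoff in no sample compared. It lay at 148, 134 and 126 normalized counts for 96h against 72h, 120h against 96h and 120h against 72h AEL. Each pair of stages was fitted alone by the quasi-likelihood method of edgeR 4.0.16 (R 4.3.3), two-sided, with Benjamini-Hochberg adjustment over all genes tested and a threshold of 0.05. SE values are the absolute log2 fold change over the square root of the F statistic. Genes under the filter have values from a fit without it. Alternatives were DESeq2 1.42.0, other scalings and filters, a length correction, a replicate block and each library left out. The fits were tested on simulated counts. The floor of 3 counts (0.0804 to 0.170 CPM, unscaled) covers counting error only.

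All 8 members are named. Other genes followed rules: up to 4 called genes with the largest change per list, markers of high level, the 3 genes with the highest Pearson correlation of log2 CPM (prior count 2) with a member, and the nearest annotated protein-coding genes that do not overlap a member. Among these, *Fas2*, *bib* and *kappaTry* were given by library after their values were seen, as were *bam*, *Jon99Cii* and the list genes that did not pass. Members and lists were chosen with earlier results of these data known. Tables and plots used Python 3.11.15, numpy 2.4.6, pandas 2.3.3 and matplotlib 3.10.9.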

Additional observations from a re-analysis of the deposited data

How the results depend on the processing

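Of 138 alternative log2 fold changes of *ogre*, *Inx2* and *Inx3*, 132 kept their direction and side of the threshold, 6 kept the direction and lost the call, and none reversed. Between 96h and 120h AEL (14 alternatives per gene) keeping the side meant staying uncalled, and all 6 lost calls were in comparisons with 72h AEL. Leaving out 72h AEL replicate A or B alone kept the other, whose counts agreed within sampling noise. With the log2 fold changes of *Inx7*, *Inx5* and *shakB* there were 174, of which none reversed. Those of *Inx6* and *zpg* were not set against alternatives. The count of innexin genes called at 96h against 72h AEL (3) was 1 at an adjusted p threshold of 0.01 and 1 to 4 with each library left out in turn, with the 1 arising without 96h AEL replicate B. At 120h against 96h AEL it was 0 in all 16 alternatives. Of all genes tested, 52.9% were called at 120h against 72h AEL. The innexin count there included *Inx7*, which passed the filter through the sample in which it was high and so had to differ. At 120h against 72h AEL (4) it was 2 at a threshold of 0.01, 2 with 72h AEL replicate C as the lone sample of its stage (an alternative chosen after seeing the data), and 2 to 4 with each library left out, with the 2 arising without 120h AEL replicate C; without a filter it was 6. Over all genes, the calls at 96h against 72h AEL (3747) were 595 at a threshold of 0.01, 5729 with replicates A and B of 72h AEL kept apart, 1115 with replicate C alone, and 645 to 4001 with each library left out (645 without 96h AEL replicate B, 1655 without replicate A). At 120h against 96h AEL (1205) they were 511 at 0.01, 1873 with DESeq2 and 539 to 1336 with each library left out. At 120h against 72h AEL (4828) they were 2312 at 0.01, 2796 with 72h AEL replicate C alone and 2563 to 5102 with each library left out. The cause of these differences was not tested.

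With library size in place of TMM, the all-gene median of log2 fold changes moved to 0.44 at 96h against 72h AEL and 0.58 at 120h against 72h AEL, and called genes split into 3178 higher and 1272 lower, against 1712 and 2035 with TMM, in the comparison of 96h with 72h AEL, and into 4086 and 1668, against 2187 and 2641, in that of 120h with 72h AEL. *ogre*, *Inx2* and *Inx3* stayed higher and called in both (at 96h against 72h AEL, log2 fold changes of 2.00, 2.28 and 1.40), above that median. The length trend was centred on each library's median, a detail set after a first version without it was seen to shift all genes. Of 264 alternative levels and shares, 12 moved by more than 1 SD between libraries.

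The replicate letters share only a letter in the labels. Correlations of same-lettered deviations were -0.42, 0.18 and -0.31 for 96h with 72h AEL, 0.15, 0.12 and 0.09 for 120h with 96h AEL and -0.16, 0.18 and 0.14 for 120h with 72h AEL. Between 96h and 120h AEL each library correlated best with its own letter, and correlations between unlike letters were negative. The deviations are from the stage mean, so positive values of like letters by themselves push those of unlike letters down on average. Replicates A and B of 72h AEL agreed within sampling noise, so their letters cannot be told apart there. Whether the letters mark pairs was not tested. With the letter as a replicate block, the innexin counts were 3, 0 and 4 in the 3 comparisons, and 3384, 880 and 5709 genes were called in all. Depth limits the scarce genes: *Inx6* and *zpg* had at most 7 counts in any library.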
